A study of Mus musculus with 108 samples.

Results

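The polyadenylated RNA of mouse oocytes from which Exosc10 had been knocked out in the oocyte alone (cKO) was compared between the germinal vesicle (GV) stage and the metaphase II (MII) egg. The members are the polyA libraries titled as MII cKO (15 eggs) and as GV cKO (15 oocytes), leaving out titles that carry Exo10, and are 30 of the 108 samples of the series. Every library was made from 1 oocyte. GV oocytes were kept ex vivo in M2 medium, and MII eggs were dissected from oviducts, so stage goes together with the site and setting of maturation and these cannot be told apart. The strain, the age of the females, the targeted allele and the Cre driver are not given in the sources used here. Each title also carries a number (V857 and the like), which is read here as the female that gave the oocyte, although the labels do not say what it marks. By these numbers, GV oocytes came from females V857 (5) and V888 (10), and MII eggs from females V841 (2), V842 (2) and V897 (11). 5 further groups serve as references: 11 cKO oocytes cultured for 3 h from the GV stage (GV3h, 3 females), 7 GV and 8 MII oocytes of control genotype (2 and 3 females), and cKO RiboMinus libraries, which are depleted of ribosomal RNA and primed with random hexamers instead of being selected on the poly(A) tail (7 GV and 4 MII, 2 females each).

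A fully grown mouse oocyte is held in meiotic prophase with a large nucleus, the germinal vesicle, and a store of maternal mRNA. It then matures to metaphase II with little or no transcription, so new protein comes from stored messages whose poly(A) tails are lengthened in the cytoplasm, often through the cytoplasmic polyadenylation element (CPE) and the CPEB proteins that bind it, while many others lose their tails to the CCR4-NOT deadenylase, which the adaptor BTG4 brings to them, and decay. EXOSC10 is a nuclear 3' to 5' exonuclease that works with the RNA exosome, the complex that trims and degrades nuclear RNA. PolyA libraries start from oligo(dT) beads, so a level in them depends on both the amount of an RNA and on its tail, and the 2 parts cannot be told apart within these libraries.

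Levels are given as counts scaled to a common library size (CPM, on a TMM scale over all polyA oocytes), and a gene's values as the lowest, the median and the highest of the 15 oocytes or eggs of a stage. Oocytes of 1 female are not independent, so the counts were summed per female and 2 GV females were compared with 3 MII females by edgeR's quasi-likelihood F test. A gene is called where the Benjamini-Hochberg adjusted p over all genes tested is under 0.05; "rose" and "fell" below mean called higher or lower at MII, and log2 fold changes are MII minus GV with their SE. CPM are relative within a library, and the RNA content of an oocyte was not measured here.

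The targeted gene was low in all 30 libraries. Exosc10 (chromosome 4) was at 0, 0.949 and 3.25 CPM in cKO GV oocytes and 0, 0.143 and 2.24 CPM in cKO MII eggs, against medians of 47.3 and 90.8 CPM in control GV and MII oocytes. The cKO ranges overlapped between the stages, and the log2 difference was -0.83 ± 0.99 (SE, edgeR adjusted p = 0.546).

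Library totals ran from 5381816 to 7727869 counts at GV and from 6413351 to 8735914 at MII. Reads outside annotated genes took 10.07% to 14.17% of the reads at GV and 5.85% to 6.77% at MII. After thinning each library to 5381000 counts, a median of 15368 genes had at least 5 counts at GV and 13085 at MII, with no overlap between the stages. The 2 GV females stood apart: between the oocytes of V888 and those of V857, with each oocyte as a replicate, 6189 of 14866 genes (41.6%) passed the same threshold, whereas the MII eggs of V897 differed from those of V841 and V842 in 70 of 13373 genes (0.523%; DESeq2 208). Of the marker lists, the 12 oocyte genes summed to 20396 to 25358 CPM at GV and 32027 to 41755 CPM at MII. Of these oocyte genes 5 rose and 5 fell, with medians of 3818 and 13249 CPM for H1foo and 3733 and 1901 CPM for Zp2. Cumulus and granulosa markers (17 genes) summed to 29.4 to 86.2 CPM at GV and 74.8 to 136 CPM at MII. Of the 12 of these tested, 1 rose and 3 fell: Cyp19a1 had medians of 19.3 and 74.5 CPM, Fshr, Inha and Inhba went from medians of 1.91, 4.13 and 1.36 CPM to 0, and Ptx3 was at 0 in both stages. Oviduct epithelium markers (10 genes) summed to 11.9 to 36.1 and 15.1 to 75.3 CPM, and blood and immune markers (10 genes) to 22.6 to 95.0 and 107.9 to 184.6 CPM, nearly all from Ms4a1, with Ptprc, Hba-a1 and Hbb-bt at 0. Markers of the 2-cell embryo (13 genes found) summed to 34.6 to 136.9 and 25.3 to 67.5 CPM. The part of these cells, of the reads outside genes and of the difference between the GV females in the results was not tested.

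From GV to MII the polyA transcriptome of the knockout changed widely, with many moderate rises, most frequent among abundant genes, and deeper falls, most frequent at middle levels. Of 18353 genes tested, 6910 (37.7%) were called: 2924 rose (15.9%) and 3986 fell (21.7%). A change of 2-fold or more was called up in 2113 genes (11.5%) and down in 3695 (20.1%). The 2 directions differed in size. Among the risen genes 811 changed by less than 2-fold and 15 (0.51%) by 16-fold or more; among the fallen genes 291 changed by less than 2-fold and 621 (15.58%) by 16-fold or more. They also differed in level. At a mean log2 CPM between 8 and 10, 72.8% of genes rose and 7.79% fell; between 2 and 4, 7.78% rose and 31.12% fell, and between 4 and 6, 18.84% and 31.41%; below 0, 0.83% rose and 10.48% fell. The median log2 change of the fallen genes was -1.43 between 8 and 10, -2.29 between 2 and 4 and -4.47 below 0, where only large changes reach the threshold. The risen genes held 36.3% to 44.7% of the counts of a GV oocyte and 63.6% to 70.0% of those of an MII egg, and the fallen genes 21.7% to 27.7% and 4.64% to 6.31%, with no overlap between stages. Both groups were chosen by the change in these same libraries, so the direction and the gap of these shares are in part built in.

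**Figure D1:**
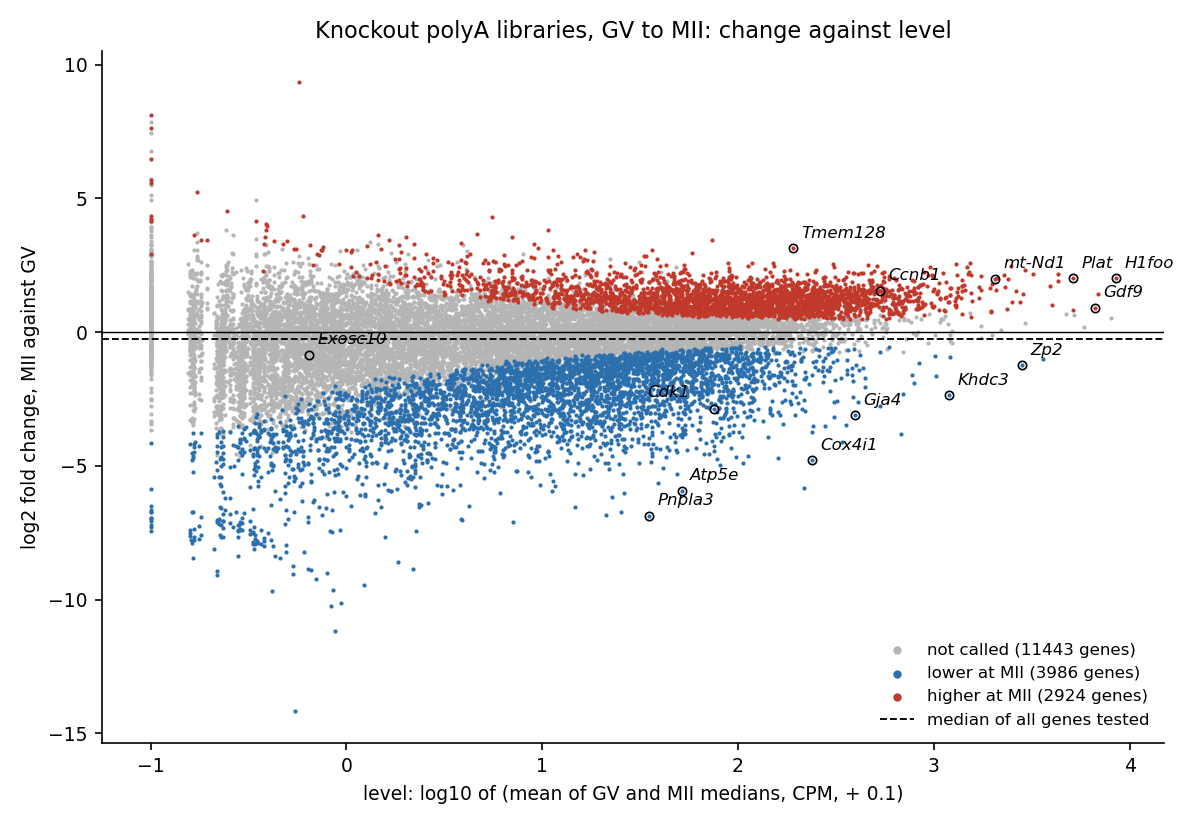
Log2 fold change from GV to MII (y axis) of each of the 18353 genes tested in the knockout polyA libraries, against its level (x axis, log10 of the mean of the 2 stage medians in CPM plus 0.1). Red genes were called higher (2924), blue genes lower (3986); the dashed line is the median of all genes (-0.25). Rises gather at the right, among abundant genes, and the falls reach further from 0.

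The split between directions depended on the scaling. With TMM 42.3% of the called genes were higher at MII, and with plain library totals, which move the median of all genes by -0.53 from -0.25 to -0.78, 18.9% were (1398 higher, 7.62% of the genes tested, and 5998 lower, 32.7%). The counts of list members below are read against these shares of all genes: 15.9% up and 21.7% down with TMM, and 7.62% and 32.7% with library totals. These shares pool all levels. At a mean log2 CPM between 6 and 8, 44.33% of genes rose and 17.97% fell with TMM. List members were not matched to genes of like level, so the part of level in their counts was not tested. Genes named here as risen stayed above 0 and those named as fallen stayed below 0 on both scales. In the 5 fits that each leave out 1 female, 5011 (without V841) to 7188 (without V888) genes were called, 11.2% (without V841) to 17.2% (without V888) of all genes up and 15% to 20.9% down in the same fits, and 1883 genes were called higher and 2175 lower in every one of these fits.

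Stored mRNAs known to be polyadenylated or translated during maturation rose together. Of 20 listed genes, 18 rose, none fell, and 16 had no GV oocyte at the level of any MII egg. The stages were apart in this way in 3382 of the 18353 genes tested (18.4%). The median log2 change of the list was 1.48, against -0.25 over all genes. With library totals 16 rose and none fell. The list was chosen with knowledge of these data and of the control oocytes, in which 18 also rose, so it is not independent evidence of its direction. CPE stretches from the last 150 bases of the 3' untranslated region (UTR) of Ccnb1, Btg4, Cnot7 and Plat, and of the abundant linker histone gene H1foo, are printed because, of 4 motifs searched, this was the one whose share differed most between risen and fallen genes. They were read from GENCODE M21 transcripts on GRCm38, 5' to 3' along the mRNA with the element in capitals: Ccnb1 at chr13:100778770-100778799 (minus strand), Btg4 at chr9:51119797-51119826 (plus), Cnot7 at chr8:40493038-40493067 (minus), Plat at chr8:22782745-22782774 (plus) and H1foo at chr6:115950157-115950186 (plus).
Ccnb1: ttgctgTTTTAATttatacatctgatatca
Btg4: agataaatccctTTTTATgtctttttaaaa
Cnot7: tcttaaggtacaTTTTATatcaataaaaat
Plat: gtatatttataTTTTAATctattttagttt
H1foo: cgattctgaagcTTTTATtgtctaataagc

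Btg4, the adaptor named above, was at 534, 959.9 and 1341 CPM in GV oocytes and at 1969, 2983 and 3473 CPM in MII eggs, and rose by 1.80 ± 0.24 on the log2 scale (edgeR adjusted p = 0.0012). Plat, tissue-type plasminogen activator and a classic example of a message activated in maturing mouse oocytes, went from 1359.7, 2404 and 3204 to 6573, 7869 and 10299.8 CPM (2.02 ± 0.25, p = 0.000975). Ccnb1, cyclin B1 of the M-phase promoting factor, went from 242, 297 and 395 to 637, 766 and 1065 CPM (1.55 ± 0.19, p = 0.000867). In all 3 genes the lowest MII egg was above the highest GV oocyte. The deadenylase subunit gene Cnot7 rose by 2.10 ± 0.29, and Slbp, whose protein binds the stem-loop of histone mRNAs, by 2.13 ± 0.22. The oocyte homeobox gene Obox5 rose by 2.18 ± 0.32, the oocyte-secreted protein gene Oosp1 by 2.0 ± 0.27, and Orc6, of the origin recognition complex, by 1.93 ± 0.35 (2.67 without V888). Obox genes have close paralogs, so reads shared between copies make their values uncertain. Mos, the kinase that starts the MAP kinase cascade of the egg, and Dazl, an RNA-binding activator of translation, rose by 1.14 ± 0.19 and 1.42 ± 0.22. Tex19.1 rose by 1.17 ± 0.23 with overlapping oocytes (98.6 to 299 CPM at GV, 259 to 464 at MII). Ewsr1 and Rad51c did not pass the test, with log2 values of 0.41 ± 0.19 and 0.74 ± 0.29.

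**Figure D2:**
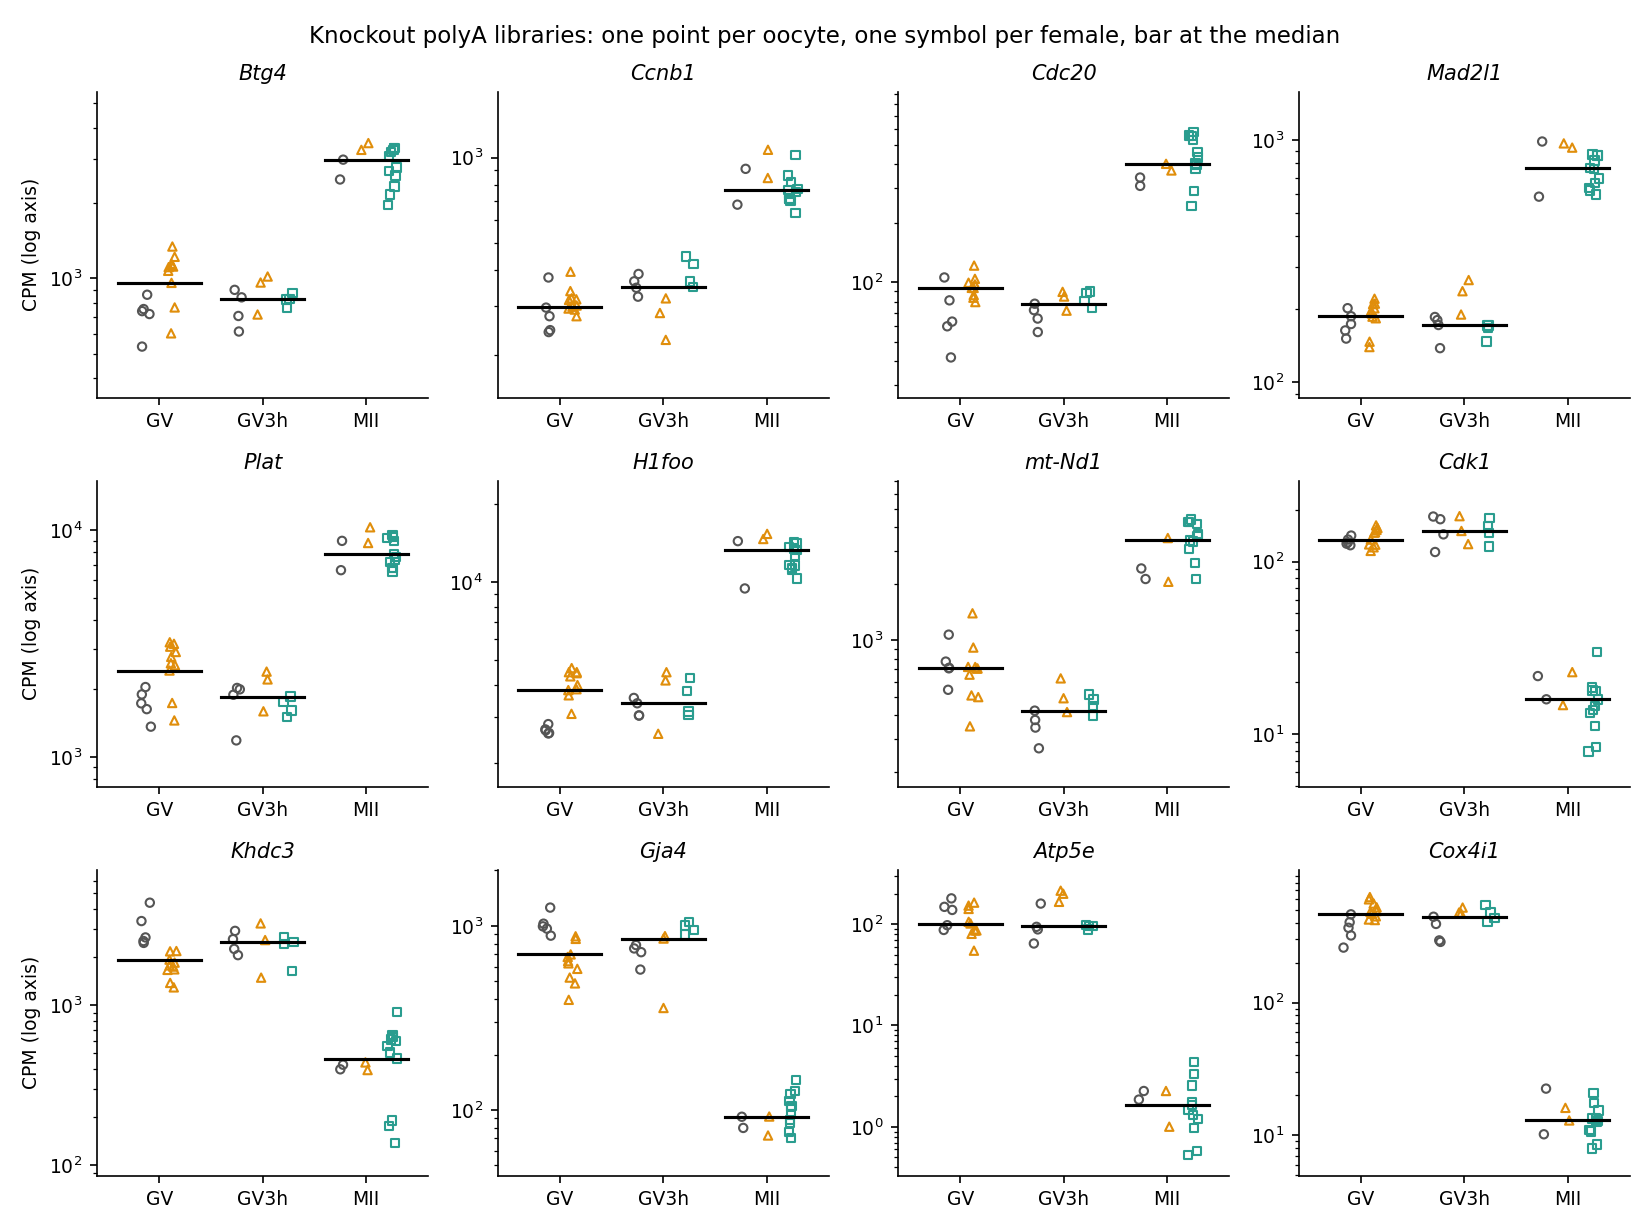
CPM (log axis) of 12 genes in each knockout polyA oocyte at GV (15), after 3 h of culture (GV3h, 11) and at MII (15); 1 point is 1 oocyte, each symbol within a stage is 1 female and the bar is the median. In the first 7 panels every MII egg lies above every GV oocyte, in the last 5 every MII egg lies below, and the GV3h medians lie closer to those of GV than of MII in all 12.

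Across the transcriptome, genes that rose had a CPE more often than genes that fell. The search took TTTTAT or TTTTAAT on the mRNA strand in the last 150 bases before the annotated 3' end, for the 12552 tested protein-coding genes whose 3' UTR is at least that long (of 14198 tested). A CPE was found in 3145 of them (25.06%): in 39.68% of the 2475 risen genes, 15.07% of the 2834 fallen genes and 23.97% of the 7243 genes not called. Among risen genes of at least 4-fold the share was 46.01% (98 of 213). The median log2 change was 0.37 with an element and -0.35 without one; in control oocytes these medians were 0.53 and -0.23, and in the cKO RiboMinus libraries 0.00 and 0.02. A letter match in 1 principal annotated transcript per gene is a description of that window and shows neither use of the site nor of that 3' end.

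Genes with a CPE rose more often than those without in each of 4 groups by level and by base composition. The groups are wide, with 19.33% to 54.67% A and T in the lowest, and the level is the mean over both stages. The part of level and of composition in the difference was not tested. When the genes were split into 4 equal groups by mean CPM, 64.95% of genes with a CPE rose against 45.49% without one in the highest group, and 29.23% against 15.65%, 11.87% against 4.99% and 2.41% against 1.37% in the others. The window of risen genes was richer in A and T (median 66.67%) than that of fallen genes (56.67%). Within 4 groups by that A and T content, from the lowest to the highest, 12.5%, 28.28%, 30% and 36.01% of genes with a CPE rose, against 7.64%, 14.9%, 20.74% and 25.78% of those without. Other short motifs differed less: TATTTAT, an AU-rich element, was in 8.16% of risen and 4.41% of fallen genes, the Pumilio motif TGTANATA in 8.48% and 5.01%, and the AATAAA hexamer of the cleavage signal in 75.88% and 59.42%. Median 3' UTR length was 1275 bases for risen and 771 for fallen genes. Of the 12 largest falls named below, 2 (Pxdn and Adprhl2) had CPE letters in the part searched, which was shorter than 150 bases in 3 of them, and of the 11 largest rises with an annotated 3' UTR 5 had them. The letters were absent from 9 of the 18 risen stored mRNAs (Cnot6l, Dazl, Dcp2, Il7, Mos, Obox5, Slbp, Tex19.1 and Tpx2; for Mos the whole 3' UTR of 126 bases was searched) and present in the other 9.

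**Figure D3:**
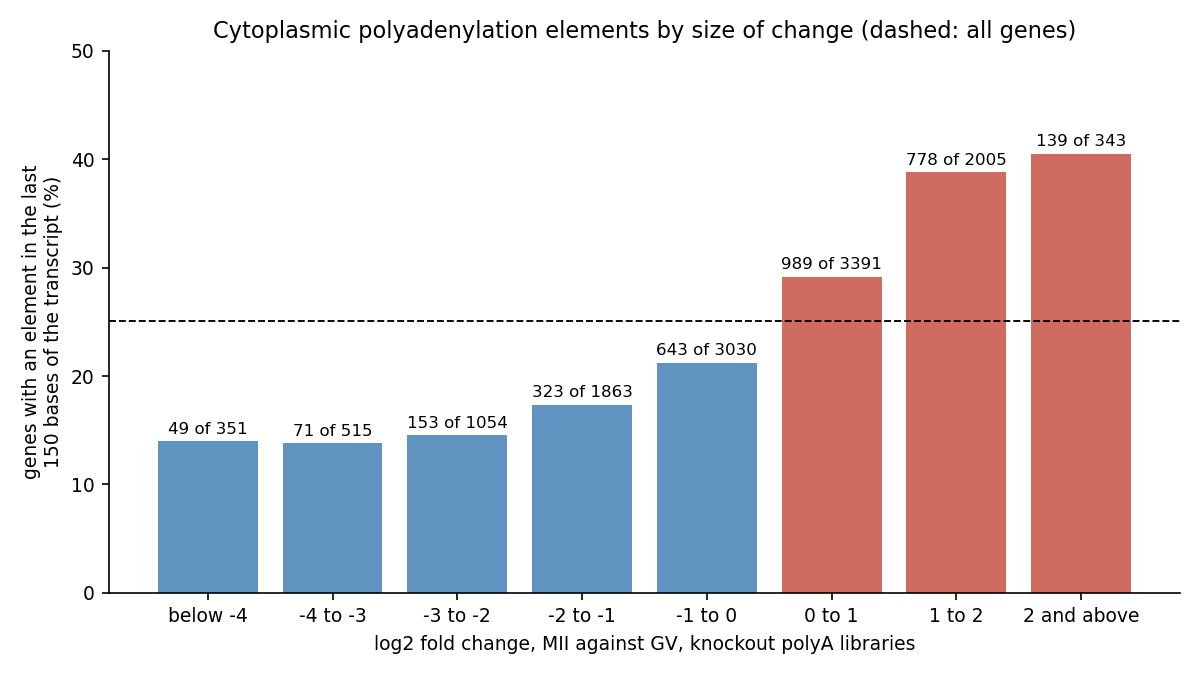
Share of genes with TTTTAT or TTTTAAT in the last 150 bases of the transcript (y axis, %), in 8 bins of the log2 fold change from GV to MII in the knockout polyA libraries (x axis); numbers above the bars give genes with an element of all genes in the bin and the dashed line is the share over all 12552 genes (25.06%). The share is 13.79% to 14.52% in the 3 bins below -2 and 38.8% and 40.52% in the 2 bins above 1.

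Genes of the M-phase promoting factor and its kinases went in both directions, and cyclin B and Cdk1 parted. Of 22 listed genes, 11 rose and 2 fell (median 0.80); with library totals 5 rose and 4 fell. Ccnb2, the other B-type cyclin, was at 111, 130.4 and 181 CPM at GV and 314, 374 and 499.7 at MII (1.5 ± 0.19, edgeR adjusted p = 0.000949). Cdk1, the catalytic partner of both cyclins, was at 115, 134 and 162 CPM at GV and 7.9, 15.8 and 29.9 at MII, and fell by 2.88 ± 0.21 (p = 0.000203). Neither gene had an oocyte of 1 stage within the range of the other. The Cdk-binding subunit genes Cks1b and Cks2 rose by 2.05 ± 0.29 and 1.83 ± 0.28, and Aurkc, the Aurora kinase of meiotic cells, by 2.35 ± 0.22. The inhibitory kinases of Cdk1 also differed from each other. Wee2, the oocyte form, was at 306, 500.5 and 606 and then 758, 883 and 1125 CPM (log2 1.10 ± 0.23; with library totals 0.58, p = 0.0655, no longer called). Wee1 fell by 3.10 ± 0.64, with overlapping oocytes (5.61 to 92.2 CPM at GV, 1.78 to 13.2 at MII) and a log2 value of -1.58 without female V857 and -3.81 without V888.

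Among genes of the Mos-MAP kinase cascade and of the anaphase-promoting complex (APC/C), which together hold the egg at metaphase II, the activator and the inhibitor that work in the egg rose. Of 28 genes 12 rose and 5 fell (median 0.37); with library totals 7 rose and 8 fell (median -0.16). Cdc20, the APC/C activator of M phase, went from 41.6, 93.7 and 122 to 245, 399.6 and 578 CPM, with no overlap (2.25 ± 0.23, edgeR adjusted p = 0.000534). Fbxo43, also called Emi2, the APC/C inhibitor of metaphase II arrest, went from 92, 106 and 128 to 254, 331 and 422 CPM (1.83 ± 0.19, p = 0.000551). Pttg1, securin, rose by 1.56 ± 0.20, the substrate-binding subunit gene Anapc10 by 2.11 ± 0.22 and the MAP kinase kinase gene Map2k1 by 1.77 ± 0.19. Fzr1, the APC/C activator of prophase arrest, fell by 1.47 ± 0.27, and Anapc2, the cullin subunit, by 1.75 ± 0.21. In control oocytes 9 of these 28 genes rose and 10 fell, where 19.9% of all genes tested rose and 23.2% fell. The difference between genotypes was called for 1 of the 28.

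Spindle and chromosome genes were more often higher than lower at MII on the TMM scale. Of 32 genes of the spindle checkpoint and spindle assembly, 15 rose and 3 fell (median 0.33), while with library totals 7 rose and 7 fell (median -0.20). Without V888, V841, V842 or V897 there were 14, 12, 13 and 13 rises and 1 fall each. Mad2l1, the checkpoint protein that binds CDC20, went from 140.0, 188 and 221 to 584, 766 and 985 CPM, every egg above every GV oocyte (2.23 ± 0.20, edgeR adjusted p = 0.000361). The kinetochore kinesin gene Cenpe rose by 1.67 ± 0.26, and Spc24, of the NDC80 complex, fell by 2.04 ± 0.23. Of 23 cohesin, condensin and axis genes 11 rose and 3 fell (median 0.76), and with library totals 9 rose and 6 fell; the rises and falls were 13 and 5 without V888, 10 and 1 without V841, and 9 and 1 without V842. The cohesin subunit gene Rad21 went from 70.3, 87.6 and 131 to 146, 186 and 235 CPM (1.14 ± 0.18, p = 0.00231), also without overlap. Sycp2, of the chromosome axis, rose by 1.77 ± 0.25. The condensin genes diverged: Smc4 rose by 1.30 ± 0.24 and Ncaph2, of condensin II, fell by 2.26 ± 0.27.

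The pathway that keeps the GV oocyte arrested through cyclic AMP and protein kinase A (PKA) had 8 rises and 1 fall among 17 genes (median 0.78; without V841 or without V897, 5 rose and 1 fell), and 3 rises and 3 falls with library totals. Pde3b, a phosphodiesterase that breaks down cyclic AMP, went from 34.1, 75.3 and 116 to 205, 268 and 322 CPM (1.86 ± 0.22, edgeR adjusted p = 0.000821). Prkar2a and Prkar2b, regulatory subunits of PKA, rose by 1.55 ± 0.18 and 1.79 ± 0.38 (2.43 for Prkar2b without V888). Gja4, connexin 37 of the junctions between oocyte and granulosa cells, was the fall: 396, 699 and 1257 CPM at GV and 70.3, 92.1 and 145 at MII (-3.10 ± 0.23, p = 0.00021).

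Among factors that shorten poly(A) tails and clear mRNA, rises outnumbered falls on the TMM scale. Of 36 genes 14 rose (38.9%, against 15.9% of all genes) and 2 fell (5.56%, against 21.7%; median 0.44). With library totals 7 rose and 7 fell (19.4% each, against 7.62% and 32.7% of all genes; median -0.08). Without V857 or V842, 13 rose and 1 fell, and without V888, 13 rose and 4 fell. Cnot8, a catalytic subunit of CCR4-NOT, went from 106, 168 and 212 to 572, 705 and 861 CPM (2.21 ± 0.24, edgeR adjusted p = 0.000667), and Cnot6l, another deadenylase of the complex, from 332, 467 and 665 to 833, 1153 and 1492 CPM (1.46 ± 0.19, p = 0.0011). Neither had overlapping oocytes. Pan2, catalytic subunit of the PAN2-PAN3 deadenylase, rose by 1.57 ± 0.28, the decapping activator gene Dcp1a by 1.32 ± 0.22 and the nuclear 5' to 3' exonuclease gene Xrn2 by 1.56 ± 0.20. Zfp36l2, whose protein binds AU-rich elements, fell by 2.09 ± 0.48 at low counts (5.1 to 15.2 CPM at GV, 0 to 5.42 at MII).

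Genes of the exosome, the partner of EXOSC10, went in both directions within its ring and its cap, and several nuclear cofactors rose. Of the 6 ring subunit genes Exosc4 to Exosc9, 3 fell, Exosc7 rose and Exosc8 and Exosc9 did not pass the test; of the 3 cap genes Exosc1 fell, Exosc3 rose and Exosc2 did not pass. Of 25 exosome and cofactor genes 9 rose and 6 fell (36.0% and 24.0%, against 15.9% and 21.7% of all genes; median 0.09; without V842, 8 rose and 3 fell). With library totals 6 rose and 9 fell (24.0% and 36.0%, against 7.62% and 32.7%), so the share of falls was near that of all genes on both scales. Of the core ring, Exosc4 went from 56.8, 83.6 and 116 CPM at GV to 1.01, 6.07 and 9.37 CPM at MII (-3.91 ± 0.24, edgeR adjusted p = 0.000152), and Exosc5 from 22.8, 32.9 and 40.8 to 0.942, 1.96 and 4.93 CPM (-3.96 ± 0.42, p = 0.000638). No egg reached the lowest GV oocyte in either gene. Exosc6 fell by 4.62 ± 0.90 from a median of 10.6 CPM (log2 -5.79 without V897 and -4.03 without V857). Exosc3, of the cap of the ring, rose by 1.36 ± 0.25. Mphosph6, a nuclear cofactor of the exosome, went from 459, 595 and 712 to 1782, 2431 and 3033 CPM (2.27 ± 0.21, p = 0.000421). Zcchc8, of the nuclear exosome targeting complex, and Pabpn1, the nuclear poly(A)-binding protein, rose by 1.23 ± 0.21 and 1.48 ± 0.21. In control oocytes the log2 changes of Exosc4, Exosc5 and Mphosph6 were -2.48, -4.45 and 2.20.

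Among genes of mRNA storage and translation, poly(A) polymerases rose and several storage proteins fell. Of 34 genes 12 rose (35.3%) and 10 fell (29.4%; median 0.00; without V841, 7 rose and 7 fell), and with library totals 5 rose (14.7%) and 17 fell (50%). Tent2, the cytoplasmic poly(A) polymerase GLD2, went from 14.4, 23.8 and 38.6 to 64.5, 83 and 118 CPM without overlap (2.0 ± 0.25, edgeR adjusted p = 0.001). Papola, the canonical poly(A) polymerase, rose by 1.42 ± 0.18, and Lsm14a, a translational repressor found in RNP granules, by 1.69 ± 0.24. Zar1l, an oocyte protein of mRNA storage, went from 114, 142 and 166 to 21.4, 32.1 and 42.1 CPM (-2.19 ± 0.22, p = 0.000511). The helicase gene Ddx6 and its partner Patl2 fell by 2.68 ± 0.45 and 2.62 ± 0.43. In both the GV level differed between females, at 124 and 35.4 CPM for Ddx6 in V857 and V888 and 125 and 40.9 CPM for Patl2, and without V857 the log2 values were -1.57 and -1.66 (-3.3 for Ddx6 without V888). In control oocytes they were 0.17 and -0.95. Pabpc1, the cytoplasmic poly(A)-binding protein, fell by 1.66 ± 0.41 (p = 0.0154).

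Messages of the zona pellucida and of several maternal proteins fell, while other genes of the same lists rose. Among 15 zona pellucida, sperm-binding and cortical granule genes 4 rose (26.7%) and 6 fell (40.0%; median -0.48; without V841, 4 rose and 3 fell), and with library totals 3 rose and 8 fell (20% and 53.3%). Zp2 went from 2766, 3733 and 6654 to 645, 1901 and 2498 CPM (-1.24 ± 0.24, edgeR adjusted p = 0.00552) and Zp3, the sperm-binding zona protein with ZP2, from 1127, 1528 and 2264 to 182, 516 and 831 CPM (-1.62 ± 0.24, p = 0.00182), both without overlap. Zp1 fell by 1.34 ± 0.25. Among 21 genes of the subcortical maternal complex and of maternal effects 5 rose (23.8%) and 7 fell (33.3%; median -0.16; with library totals 0 rose and 9 fell, 42.9%). The rises and falls were 1 and 3 without V841 (11.2% and 15% of all genes), 2 and 5 without V842 (12.1% and 15.9% of all genes), and 1 and 5 without V897 (12.3% and 17.7% of all genes). Khdc3, a member of the complex, went from 1292, 1925 and 4367 to 138, 464 and 907 CPM (-2.35 ± 0.23, p = 0.000517). Another member, Ooep, fell by 1.88 ± 0.22, and Npm2, a chromatin chaperone of the egg, by 1.42 ± 0.21. The oocyte markers Nlrp5 and Dppa3 had medians of 975 and 1543 CPM at GV and 2086 and 2368 CPM at MII.

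The 2 main growth factors of the oocyte held a higher share at MII. Gdf9 was at 3921, 4733 and 5431 CPM at GV and 6605, 8631 and 10553 at MII (0.92 ± 0.20, edgeR adjusted p = 0.0101), and Bmp15 at 1992, 2949 and 3350.2 and 4549, 5070.2 and 5905 CPM (1.02 ± 0.20, p = 0.00594). With library totals these log2 values were 0.39 (p = 0.142) and 0.50 (p = 0.0653), so neither was called. Fgf8, which oocytes secrete to cumulus cells, fell from 24.3, 44.7 and 99.3 to 2.58, 6.87 and 12.3 CPM (-3.02 ± 0.37, p = 0.000903). Of the 15 genes of growth factors and follicle communication 5 rose and 3 fell (33.3% and 20%); with library totals 2 rose and 5 fell (13.3% and 33.3%).

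The transcription factor genes Figla and Nobox fell while Obox genes rose. Figla, needed to form primordial follicles, went from 25.6, 58.6 and 109 to 1.57, 5.36 and 10.5 CPM (-3.56 ± 0.32, edgeR adjusted p = 0.000383), and Nobox from 425, 546 and 816 to 149.6, 173 and 245 CPM (-1.56 ± 0.18, p = 0.000776). In neither did the stages overlap. Obox1 and Obox2, with the paralog limit given above, rose by 2.04 ± 0.27 and 1.57 ± 0.25, and Stat3 by 1.35 ± 0.16. In all, 9 of 22 factors rose (40.9%) and 5 fell (22.7%, near the share of all genes; without V841, without V842 or without V897, 9 rose and 2 fell); with library totals 6 rose and 8 fell (27.3% and 36.4%).

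Chromatin genes rose more often than they fell on the TMM scale: 16 against 4 of 31 (median 0.69), and 7 against 7 with library totals. H1foo, the linker histone of the oocyte, was the most abundant of them, at 2598, 3818 and 4644 CPM at GV and 9425, 13249 and 15309 CPM at MII (2.01 ± 0.26, edgeR adjusted p = 0.00115). Brd2, which binds acetylated histones, rose by 1.69 ± 0.27 and Ezh2, the methyltransferase of Polycomb complex 2, by 1.25 ± 0.23. Ehmt2, a histone H3 lysine 9 methyltransferase, fell by 3.40 ± 0.65 at low counts (0.383 to 17.3 CPM at GV, 0 to 3.64 at MII; log2 -2.71 without V857 and -4.16 without V897). Other abundant genes rose by similar amounts: Spin1, which binds the meiotic spindle, went from 2849, 4013 and 5164 to 8462, 9852 and 10743 CPM (1.43 ± 0.23), Tcl1, a coactivator of AKT, from 704, 1830.4 and 2124 to 4726, 6794 and 7399 CPM (2.18 ± 0.31), and Bcl2l10, of the BCL2 family, from 881, 1239.7 and 1464 to 3253, 5207 and 6247 CPM (2.16 ± 0.21). All 3 were chosen after their levels were seen, as members of the most abundant genes, and none had overlapping oocytes.

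**Figure D4:**
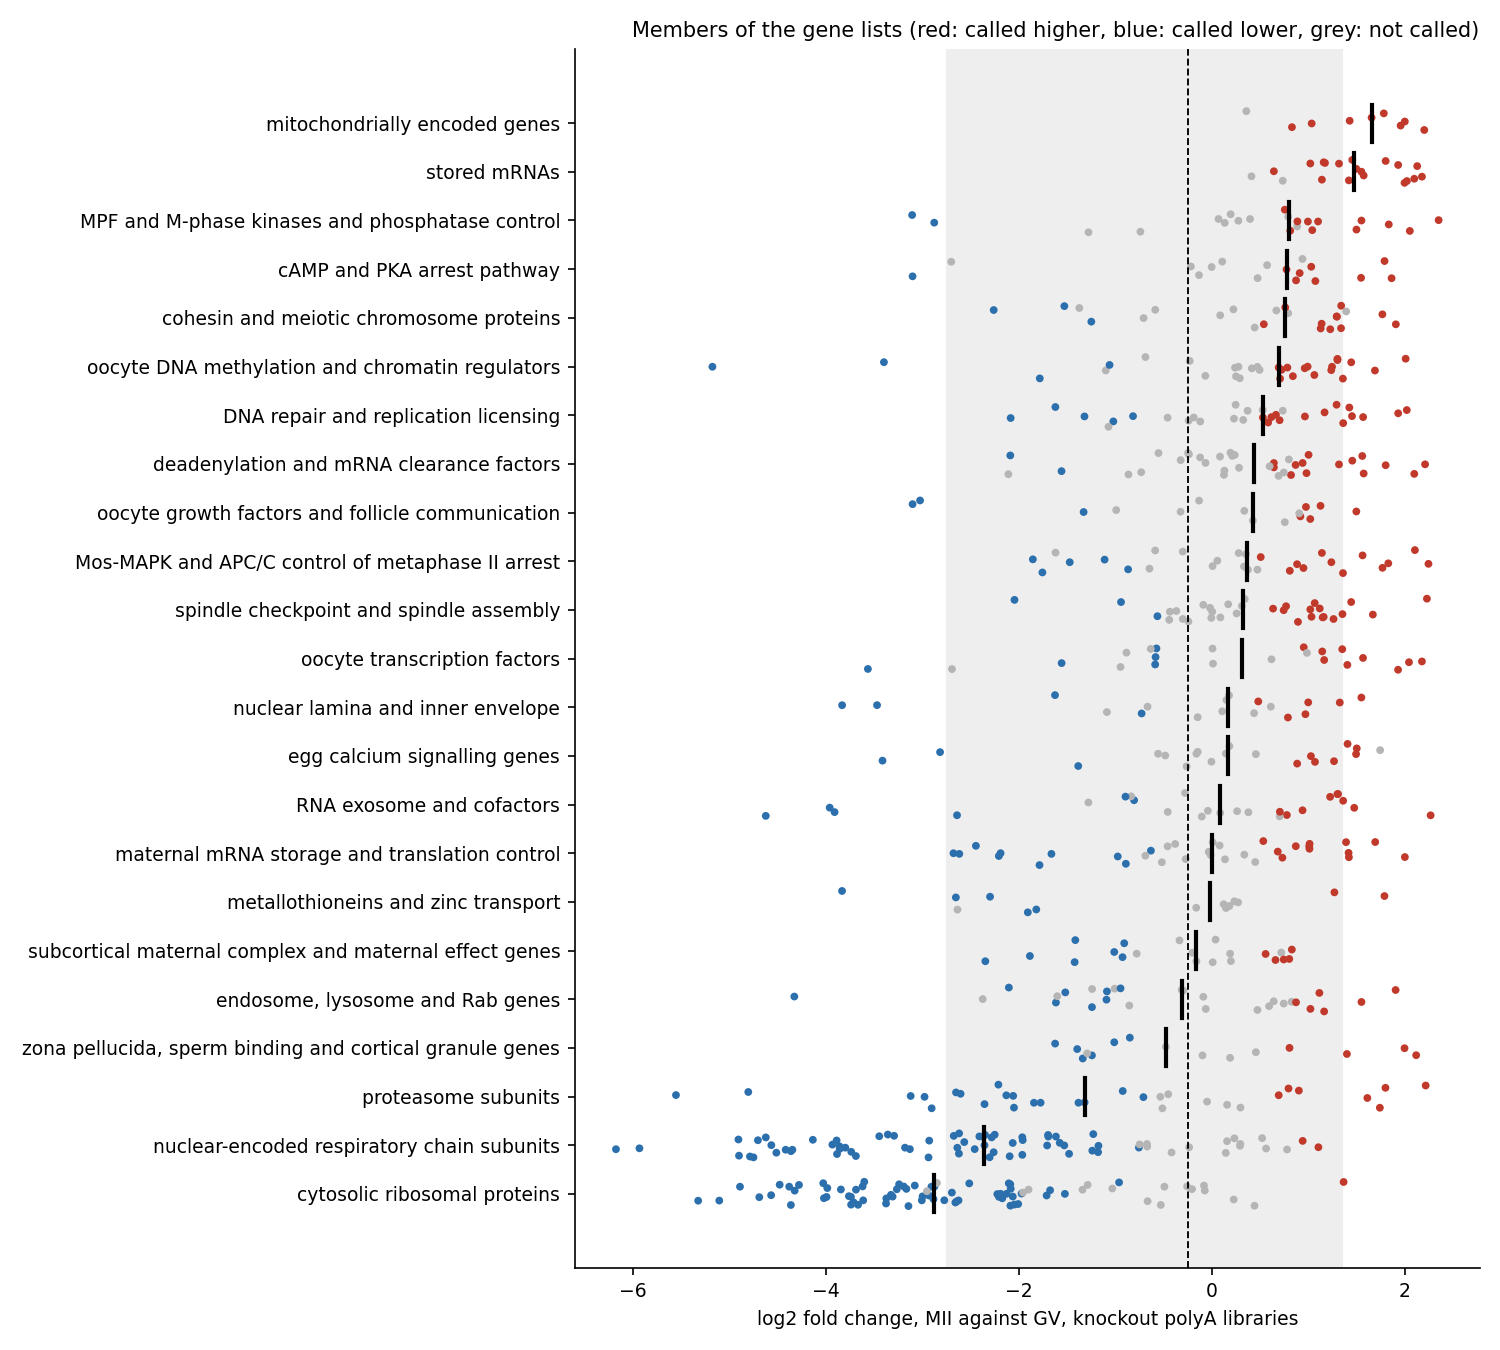
Log2 fold change from GV to MII (x axis) of each tested member of 23 gene lists (y axis) in the knockout polyA libraries; red members were called higher, blue lower and grey were not called, black bars are list medians, and the dashed line and grey band are the median and the 10th to 90th percentile of all genes tested. Mitochondrially encoded genes (1.66) and stored mRNAs (1.48) have the highest medians, ribosomal proteins (-2.88) and nuclear-encoded respiratory chain subunits (-2.35) the lowest.

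Ribosomal protein and respiratory chain mRNAs fell together. Of 80 cytosolic ribosomal protein genes 63 fell and 1 rose (median log2 -2.88; with library totals 69 fell and 1 rose; without V888, 53 fell and 2 rose), and 53 had no overlapping oocytes. Over all genes tested, 18.4% had no overlapping oocytes. Rps15 went from 21.9, 31.4 and 40.7 to 0, 0.649 and 1.59 CPM (-5.32 ± 0.48, edgeR adjusted p = 0.000383). The exception was Rps27l, a relative of Rps27, which rose from 61.7, 132 and 172 to 221, 291 and 368 CPM (1.37 ± 0.24, p = 0.00379). Ribosomal protein genes have many processed pseudogenes, which can take or lend reads. The list took 0.382% of counts in the median GV oocyte (0.217% to 0.522%) and 0.0866% in the median MII egg (0.0768% to 0.105%); over females p was 0.2 (two-sided exact permutation test), the smallest that 2 against 3 females allow.

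Of 75 nuclear-encoded subunits of the respiratory chain and ATP synthase 60 fell and 2 rose (median -2.35; with library totals 63 fell and 1 rose; without V888, 57 fell and 5 rose). Atp5e, the epsilon subunit of ATP synthase, went from 54.7, 101 and 179 to 0.529, 1.64 and 4.4 CPM (-5.93 ± 0.25, edgeR adjusted p = 0.00013), Cox4i1, of cytochrome c oxidase, from 259, 462 and 623 to 7.93, 12.9 and 22.5 CPM (-4.79 ± 0.24, p = 0.00014), and Uqcrq, of complex III, from 119, 206 and 307 to 2.87, 6.21 and 11.6 CPM (-4.90 ± 0.35, p = 0.000206). The GV and MII values were far apart in all 3. The 2 rises were Ndufa10 (1.11 ± 0.17) and Atp5b (0.94 ± 0.18; 0.42 and not called with library totals). The list took 0.834% of counts at GV (0.565% to 1.07%) and 0.235% at MII (0.180% to 0.295%). The 9 mitochondrially encoded genes went the other way: 8 rose and none fell (median 1.66; with library totals 6 and none), and their share of counts went from 0.402% (0.223% to 0.589%) to 1.0% (0.629% to 1.29%), with no overlap (p = 0.2 for both shares in the same exact test). mt-Nd1, a complex I subunit, went from 349, 709.5 and 1392 to 2048, 3399 and 4399 CPM (2.0 ± 0.23, p = 0.000795). mt-Nd2 rose by 2.20 ± 0.24 and mt-Cytb, cytochrome b, by 1.66 ± 0.24.

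Proteasome subunits fell less uniformly: 18 of 31 fell and 7 rose (median -1.32; with library totals 22 and 4). Psmb5, which carries the chymotrypsin-like activity, went from 15.1, 22.1 and 68.1 to 0, 0.397 and 1.72 CPM (-5.55 ± 0.50, edgeR adjusted p = 0.000373), and Psmb1 fell by 2.98 ± 0.28. Psmd1, a scaffold of the regulatory particle, went from 107, 147 and 191 to 439.5, 626 and 818 CPM (2.22 ± 0.19, p = 0.000314). Psmd11, of the regulatory lid, and Psma2, of the core ring, rose by 1.80 ± 0.19 and 1.74 ± 0.26.

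The 12 largest rises among called genes of at least 20 mean CPM in the higher stage, with female values that do not overlap, were chosen by their fold change and are a description. They ran from 2.81 to 3.83 on the log2 scale. Tmem128, a membrane protein gene, was at 12.7, 42.7 and 77.6 CPM at GV and 241, 339 and 434 at MII. Sclt1, of the distal appendages of centrioles, went from 4.27, 16.1 and 24.3 to 63, 100.2 and 144 CPM. Cd69 (3.31), Cldn34b2 (3.09), Gtsf2 (2.91) and Cd300c (2.86) also had no overlapping oocytes. Plac1, Cth (3.43), Chrdl1 (2.99), Tox3 (2.86), Tnfsf13b (2.84) and Ust had overlapping oocytes. For 10 of the 12 the fold moved by over 1.5 times without 1 GV female, and held within that for Tmem128 and Sclt1. Without V888 the log2 values were 6.83 for Plac1, 5.62 for Cth, 5.65 for Chrdl1, 4.99 for Gtsf2, 5.75 for Tox3, 4.30 for Ust, 4.29 for Cd69, 4.11 for Cldn34b2, 3.77 for Tnfsf13b and 3.48 for Cd300c. Without V857 those of Plac1, Cth, Cldn34b2, Chrdl1, Gtsf2, Tox3 and Ust were 2.95, 2.61, 2.5, 2.13, 2.1, 1.96 and 2.09, and without V842 that of Ust was 2.18. Chrdl1 lost the call without V841 or V897 (p = 0.0541 and 0.0753), and Tox3 without any 1 of the MII females (p = 0.054 to 0.0805). Both also lost it with library totals (p = 0.0523 and 0.0672), and Plac1 and Ust lost it with limma (p = 0.127 and 0.122). With at most 3 oocytes per female Plac1, Chrdl1 and Tox3 lost it (p = 0.181, 0.136 and 0.0801). In control oocytes Tmem128 and Sclt1 had log2 values of 2.33 and 2.06, and Cd69 one of -0.88.

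The 12 largest falls by the same rule were deeper than the rises, from -5.62 to -6.86 on the log2 scale beside Pxdn, which was at 0 at MII. Pnpla3, a lipid droplet hydrolase, went from 44.4, 69.7 and 85.5 to 0, 0.377 and 2.28 CPM (-6.86 ± 0.42); in control oocytes the log2 value was 0.76 (p = 0.697), and the difference between genotypes had p = 0.157. Myg1, a mitochondrial and nuclear nuclease, went from 31.7, 50.4 and 75.6 to 0, 0 and 2.28 CPM (-6.72 ± 0.44), and Snrpd2, a core protein of spliceosomal RNPs, from 27.5, 51 and 66.9 to 0.162, 0.817 and 1.74 CPM (-6.02 ± 0.50). In all 3 the highest MII egg was below the lowest GV oocyte. Ldhc, a lactate dehydrogenase (-6.83), Uqcrc1, of complex III (-6.17), Tsacc (-5.74) and Bola1, of mitochondrial iron-sulphur assembly (-5.62), also had no overlapping oocytes, as had Atp5e. Zfp707 (-6.54), Adprhl2 (-5.70; -9.56 without V897 and -5.05 without V857) and Ccnd2, cyclin D2 (-5.94), overlapped between stages, and Ccnd2 lost the call with limma (p = 0.0868). Without V857 the log2 values of Ldhc and Zfp707 were -5.41 and -5.7, without V888 that of Ldhc was -7.49, without V841 that of Ccnd2 was -6.78, and without V897 those of Ldhc, Uqcrc1, Pnpla3 and Snrpd2 were -7.48, -7.51, -7.55 and -6.64. Pxdn, peroxidasin, was at 0 in all MII eggs and at 107 CPM in GV oocytes of V857 but 0.449 CPM in those of V888. Its mean over the 15 GV oocytes (36.9 CPM) was 96.3 times the floor of 3 counts per library at MII, while the GV median was 0.894 CPM. The log2 value was -14.17, and -7.38 without V857, so the size of the fall rests on that female.

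After the 3 h culture most genes changed at MII were still near their GV level, but not all those named. The place of the GV3h level between GV (0%) and MII (100%) was taken from the means over females, once on the log2 scale (CPM plus 0.01) and once in CPM. For 1750 genes that rose at least 2-fold, with at least 20 CPM in the higher stage, it lay at a median of -3.65% on the log2 scale (quartiles -14.3% and 5.22%) and -1.97% in CPM. For 1733 genes that fell at least 2-fold the medians were -0.87% (quartiles -5.8% and 4.56%) and -1.77%. Past the middle were 6 (0.34%) risen and 10 (0.58%) fallen genes on the log2 scale, and 1 (0.06%) and 16 (0.92%) in CPM. Of the named genes, Chrdl1 and Ust were past it on the log2 scale alone (57.3% and 54.7%, against 32.5% and 31.5% in CPM), Pnpla3 and Ccnd2 in CPM alone (69.4% and 84.2%, against 24.0% and 43.6%), and Pxdn on both (53.3% and 98.99%). The GV3h medians of Btg4, Plat and Ccnb1 were 830.1, 1845 and 349.7 CPM, and those of Cdk1, Cox4i1 and Khdc3 151, 443 and 2488 CPM. Among the largest falls, Pnpla3 had medians of 69.7, 4.14 and 0.377 CPM at GV, GV3h and MII, with GV3h females at 3.98 (V946), 49.0 (V983) and 2.36 CPM (V993), and Ccnd2 medians of 22.2, 0.922 and 0 CPM, with GV3h females at 0.845, 11.8 and 0.690 CPM in the same order. In both, 2 of 3 cultured females were well below the GV level and V983 was nearer to it. From GV3h to MII, with 3 other females as the start but the same MII eggs, 57.3% of 17153 genes passed the threshold (9827), 26.2% upwards and 31.1% downwards (4490 and 5337 genes, and 2403 and 7936 with library totals). The stored mRNAs then had 19 rises and no fall of 20, ribosomal proteins 2 rises and 70 falls of 80, respiratory subunits 5 rises and 62 falls of 75, and mitochondrially encoded genes 9 rises of 9. Both comparisons share the MII eggs, so they are not independent.

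In the RiboMinus libraries the genes called in polyA had median changes nearer to 0. Of 20796 genes tested between 2 GV and 2 MII females, 0 (0%) were called by edgeR, with 3654 at an unadjusted p under 0.05, and 1844 were called by DESeq2 and 802 by limma. Leaving out V1126, V1131, V1166 or V1167 gave 592, 185, 3 and 1200 calls. The median log2 change of the 2924 risen genes was 1.25 in polyA and 0.15 in RiboMinus libraries, and that of the 3986 fallen genes -2.34 and -0.28. The difference between library types was called in 2773 of 22738 genes (12.2%; 5.93% more positive and 6.26% more negative in polyA; with library totals 488 genes more positive and 2710 more negative, against 1349 and 1424; 1478 without V1126 and 1758 without V841). Of the risen genes 1105 were among the more positive and 0 among the more negative, and of the fallen genes 1277 were more negative and 1 more positive. The polyA values that chose these genes also enter that difference, so the split of signs is in part built in. RiboMinus GV and MII libraries held 13665258 to 23414673 and 20678209 to 62675760 counts.

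**Figure D5:**
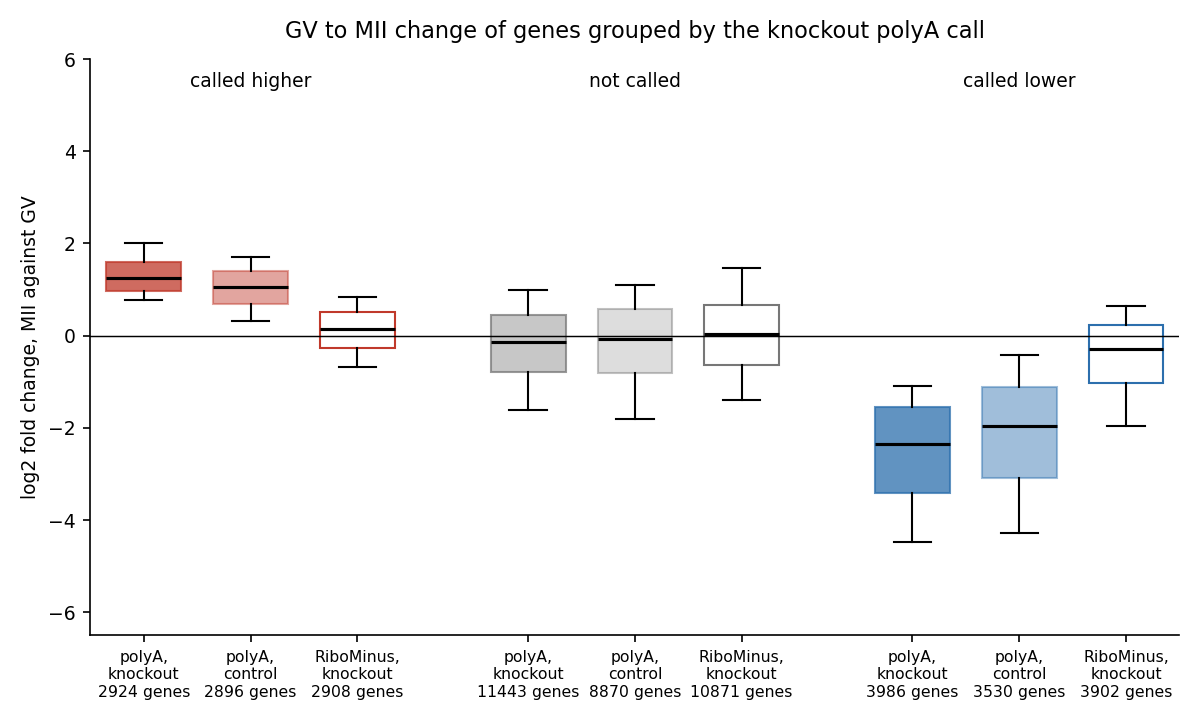
Log2 fold change from GV to MII (y axis) of genes grouped by their call in the knockout polyA libraries, as measured in knockout polyA, control polyA and knockout RiboMinus libraries (x axis, with the genes tested); boxes are quartiles with the median and whiskers the 10th and 90th percentiles. Control polyA boxes lie close to those of the knockout, and RiboMinus boxes lie near 0, with medians of 0.15 and -0.28 for the called groups.

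Cyclin, spindle and energy genes were among those whose change differed between library types. Ccnb1 was 1.55 in polyA and -1.15 in RiboMinus libraries (difference 2.81 ± 0.37, edgeR adjusted p = 0.0014). Cenpe was 1.67 and -1.86 (3.64 ± 0.41, p = 0.000808), and Cdc20 2.25 and -0.79 (3.16 ± 0.39, p = 0.00119). All 3 had positive changes in polyA and negative values in RiboMinus libraries. Atp5e was -5.93 and -0.44 (-5.37 ± 0.43, p = 0.000285), Cox4i1 -4.79 and 0.30 (-4.98 ± 0.43, p = 0.000337) and Cdk1 -2.88 and -0.25 (-2.51 ± 0.48, p = 0.00703). The difference between library types was called for 13 of 20 stored mRNAs and 16 of 32 spindle genes, all more positive in polyA, and for 32 of 80 ribosomal and 45 of 75 respiratory genes, all more negative. Over all genes 5.93% were more positive and 6.26% more negative, and with library totals 488 and 2710 of 22738 genes. The list counts were not taken on that scale. None of the 9 mitochondrially encoded genes passed this test: mt-Nd1 was 2.0 in polyA and 2.03 in RiboMinus libraries (difference 0.10 ± 0.44, p = 0.914), and mt-Nd2 2.20 and 2.11.

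Control oocytes went through much of the same change. Between 2 control GV and 3 control MII females 43.1% of 15500 genes passed the threshold, 19.9% upwards and 23.2% downwards (3083 and 3598 genes, and 1711 and 4982 with library totals; 4059 genes without V856 and 4117 without V889, against 6681). Of 15296 genes tested in both genotypes, 2192 were called higher in both (75.69% of those risen in cKO and 71.24% of those risen in control) and 2444 lower in both (69.24% and 68.4%), and 13 and 10 were called in opposite directions. The log2 changes of Btg4, Cdk1, Rps15, Cox4i1 and mt-Nd1 were 2.10, -3.51, -6.16, -5.52 and 2.34 in control oocytes.

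The change from GV to MII differed between genotypes for 13 of 18010 genes (0.0722%, edgeR test of the interaction over females), all with a more positive change in cKO. Most fits that called more genes, all but that without the control female V856, called both directions. Of the 13 genes, 5 were also called in cKO and met the level and symbol rules. Tm2d1, a TM2 domain protein gene, went from 62.8, 91.7 and 124 to 175, 255 and 370.4 CPM in cKO and from a median of 122 to 54.6 CPM in control (log2 1.69 and -1.15, difference 2.83 ± 0.25, adjusted p = 0.00259). Dppa5a, a KH domain gene of pluripotent cells, fell in both genotypes, from 249.9, 556 and 758 to 15.4, 59.4 and 119 CPM in cKO and from a median of 282 to 9.16 in control (-3.19 and -4.98, difference 1.79 ± 0.22, p = 0.0114). Ndufa2, of complex I, also fell in both (-2.37 and -4.90, difference 2.51 ± 0.28). Cetn2, a centrin, and Psma5, of the proteasome core, were higher at MII in cKO by 0.64 and 0.80 with control values of -2.26 and -1.16. The cKO calls of both were lost with library totals (0.11 and 0.27) and without V857 or V897, that of Cetn2 also without V842, with limma (p = 0.0828) and with no filter on low counts (p = 0.0616), and that of Psma5 without V841. The difference between genotypes was itself lost for Dppa5a with limma (p = 0.262), for Dppa5a and Ndufa2 without the control female V889 (p = 0.0936 and 0.0701), and for Psma5 without any 1 of V857, V889, V841, V897, V836 or V853 (p = 0.0514 to 0.181). None of 17 alternatives ended it for Tm2d1 or Cetn2. The others were Mtmr14, Tmem14c, Elobl, Calm2, Mtx2, Mapk3 and E330017A01Rik, not called in cKO, and Gm17751. Mapk3, the MAP kinase ERK1, was at medians of 143 and 147 CPM in cKO and 292 and 35.3 CPM in control, and Calm2, a calmodulin gene, at 286 and 328 CPM in cKO and 259 and 50.3 in control. The difference of Calm2 was lost without V889 (p = 0.0932) and that of Mapk3 without V857, V889, V841 or V853 (p = 0.0593 to 0.0932). It was lost in 12 of the 17 alternatives for Mtmr14, 10 for Mtx2, 7 for Tmem14c and 6 for Gm17751, and in none for Elobl and E330017A01Rik. The number and the direction of such genes depended on the fit. There were 1484 more positive and 803 more negative with each oocyte as a replicate, 440 and 251 with DESeq2, 464 and 84 with limma, 374 and 316 with no filter on low counts, and 495 and 309 without V888. There were 12 and 2 without V857, 13 and 2 without the control female V896, 8 without V841, 4 without the control female V889 and 7 without the control female V853, the last 3 all more positive.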

How the data were processed

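Counts of reads per gene were deposited as 1 table per oocyte, made by the authors with cutadapt 2.5, STAR 2.7.2a, SAMtools 1.9, HTSeq 0.9.1 and the mm10 build, per the submitters' processing notes. PolyA RNA was taken up on oligo(dT) beads and amplified, and RiboMinus RNA was reverse transcribed with random hexamers, per the labels' protocols. The tables hold 55573 gene IDs, of which 55394 have a symbol in GENCODE M21 (GRCm38), and no spike-in lines, so levels are relative within a library. Reads in no gene (up to 14.17% in cKO polyA GV oocytes) and ambiguous reads were left out. Whether counting used strand is not given in the sources used here, so reads of overlapping antisense genes cannot be told apart, and copies such as pseudogenes may share reads.

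Counts were summed per female, filtered with filterByExpr, scaled by TMM and tested with edgeR 4.0.16 in R 4.3.3 (glmQLFit and glmQLFTest), after tests on simulated data; p-values were adjusted over all genes tested, and the SE was taken from the F statistic. Summed counts measure the spread between females only, and 2 against 3 is few. Per-oocyte CPM were scaled by TMM over all polyA oocytes. Alternatives were oocytes as replicates, limma 3.58.1 (voom, female as random block), DESeq2 1.42.0, DESeq2 size factors, library totals, 2 other filters, wider fits, at most 3 oocytes per female, and each female left out. Where this leaves 1 female in a group, that female is assumed to vary like those of the other groups. Named were Exosc10, the 12 largest rises and falls among called genes of at least 20 mean CPM with female values that do not overlap between stages, called members of 23 gene lists, and, for the genotype difference, up to 6 genes per direction by the same rule, in each case without predicted, Rik, -ps or mitochondrial symbols for the largest changes. Members and lists were chosen with earlier results of these data known. Motifs were searched on the mRNA strand only, so a CPE and an AU-rich element may overlap. Plots were drawn with matplotlib 3.10.9.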

Additional observations from a re-analysis of the deposited data

Results flagged for a closer look

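The stage change differed between genotypes for 13 genes by edgeR's interaction test, each with a log2 change that was more positive in cKO than in control oocytes. Most fits that called more genes, all but that without the control female V856, called both directions. Negative were 803 of 2287 differences with oocytes as replicates, 251 of 691 with DESeq2, 84 of 548 with limma and 316 of 690 with no filter on low counts. By size of the difference the 13 genes were E330017A01Rik (3.707), Mapk3 (3.231), Cetn2 (2.884), Tm2d1 (2.834), Mtx2 (2.577), Ndufa2 (2.514), Calm2 (2.412), Elobl (2.044), Psma5 (1.947), Gm17751 (1.853), Tmem14c (1.817), Dppa5a (1.788) and Mtmr14 (1.544). In 7 of the 13 the cKO change was not called while the control change was a fall, but E330017A01Rik was called as a fall in cKO in 8 of 15 alternatives, Elobl in 3 and Tmem14c in 2. The difference itself was lost in 12 of 17 alternatives for Mtmr14, 10 for Mtx2, 7 for Tmem14c, 6 for Gm17751 and for Psma5, 4 for Mapk3, 2 for Dppa5a, 1 for Ndufa2 and for Calm2, and in none for the other 4. For E330017A01Rik the medians were 958 and 439.7 CPM at GV and MII in cKO, and 1352 and 58.9 CPM in control oocytes.

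Among 10 sets of per-oocyte values, 2 held an egg apart from the rest of its group, and chance alone gives such an egg in about 1 in 20 sets. In both it was an MII egg of control genotype from female V836. It had the highest share of counts on ribosomal protein genes among the 8 control eggs, 0.0833%, and the fewest genes with at least 5 counts after thinning, 11244. No set of cKO polyA values was among the groups small enough for this test.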

How the results depend on the processing

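The count of genes changed from GV to MII in cKO was 6910, and 5473 to 9887 in the alternatives, and no gene was called in opposite directions between the reported fit and any of these. Library totals gave 1398 genes higher and 5998 lower. Leaving out 1 female gave 5011 to 7188 genes, 2124 to 3244 higher and 2867 to 3944 lower. In the control the leave-outs gave 4059 to 7281, and between MII females DESeq2 gave 208. For the difference between genotypes (13), oocytes as replicates gave 2287, limma 548, DESeq2 691, no filter on low counts 690, and the leave-outs 4 to 804. RiboMinus libraries (0) gave 2770, 802, 1844 and 1680 in the same order, and 3 to 1200 without 1 female. The difference between library types (2773) gave 7840 with oocytes, 4842 with limma, 4660 with DESeq2, and 1478 to 2546 without 1 female. The cause of these shifts was not tested. Of the 134 named genes called in cKO, 122 kept the call in each alternative run, 5 lost it without 1 female and none turned. The fold of 25 of them moved by over 1.5 times without 1 female. No paired analysis was possible because no female gave oocytes of both stages and the oocyte numbers only count oocytes within a female. Genes under 3 counts in a library, about 0.383 CPM at MII, are below what these depths resolve.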

Other observations

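Other gene lists showed changes within pathways that went in opposite directions. Each count is given beside the share of all genes tested, which was 15.9% up and 21.7% down, and 7.62% and 32.7% with library totals. Of 30 genes of DNA repair and replication licensing 14 rose (46.7%) and 5 fell (16.7%; median log2 change 0.53), while with library totals 8 rose (26.7%) and 10 fell (33.3%). The rises and falls were 9 and 5 without V857, 9 and 2 without V841, 9 and 2 without V842, and 8 and 4 without V897. Gmnn, geminin, which blocks licensing of replication origins, went from 77.1, 98.5 and 149 to 321, 448 and 634 CPM (2.02 ± 0.18, edgeR adjusted p = 0.000381). Mcm2 and Mcm5, subunits of the same replicative helicase, went opposite ways: Mcm2 rose by 1.57 ± 0.18 and Mcm5 fell by 1.62 ± 0.20. Chek1, a checkpoint kinase, rose by 1.45 ± 0.18.

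Of 20 genes of egg calcium signalling 7 rose and 3 fell (35.0% and 15.0%, against 15.9% and 21.7% of all genes; 7 and 1 without V841), and with library totals 6 rose and 6 fell (30% each, against 7.62% and 32.7%). Orai1, a plasma membrane calcium channel, went from 55, 80.4 and 141 to 2.24, 8.12 and 19.7 CPM (-3.41 ± 0.29, edgeR adjusted p = 0.000328). Itpr2, a receptor that releases calcium from the endoplasmic reticulum, rose by 1.5 ± 0.26. Of 14 metallothionein and zinc transport genes 2 rose and 5 fell (14.3% and 35.7%), and with library totals 2 rose and 6 fell (14.3% and 42.9%); with so few genes these shares say little beside 15.9% and 21.7%, or 7.62% and 32.7%, of all genes. The metal-binding gene Mt1 went from 130.2, 194 and 341 to 21.9, 34.7 and 46.6 CPM in cKO (-2.65 ± 0.23), and from a median of 0.886 to 7.79 CPM in control oocytes (2.95), and the difference between genotypes did not pass (p = 0.226). The zinc transporter gene Slc30a5 rose by 1.79 ± 0.18.

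Of 18 genes of the nuclear lamina and inner envelope, which disassemble when meiosis resumes, 6 rose and 4 fell (33.3% and 22.2%, against 15.9% and 21.7% of all genes), and with library totals 2 rose and 6 fell (11.1% and 33.3%, against 7.62% and 32.7%), near the share of all genes. The rises and falls were 7 and 0 without V857, 3 and 2 without V841, and 5 and 2 without V842. Lbr, the lamin B receptor, rose by 1.55 ± 0.17 from a median of 404 CPM, and Sun1, which links the envelope to the cytoskeleton, by 1.33 ± 0.17. Of 28 endosome, lysosome and Rab genes 6 rose and 8 fell (21.4% and 28.6%, near the 15.9% and 21.7% of all genes; 6 and 5 without V842), and with library totals 4 rose and 12 fell (14.3% and 42.9%, against 7.62% and 32.7%). The trafficking genes Rab14 and Rab6a rose by 1.91 ± 0.19 and 1.55 ± 0.22, and Ctsb, the lysosomal protease cathepsin B, fell by 1.52 ± 0.24. By gene type, 18.62% of 14198 protein-coding genes rose and 23.97% fell, against 6.75% and 14.77% of 2681 long noncoding genes.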
